A study of Bos taurus with 31 samples.

Results

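The comparison described here set fetal livers of dams on moderate weight gain against those of dams on low gain, where every dam had also received a vitamin and mineral supplement. It took in 15 of the 31 libraries, chosen by their treatment label: 7 of VTM_MG and 8 of VTM_LG. All 31 fetuses were female, from Angus-cross heifers inseminated with semen of 1 bull, and their livers were taken at about day 83 of gestation. VTM dams ate 0.45 kg per day of ground corn carrying the premix, and NoVTM dams did not. The dams started on it between 71 and 148 days before breeding. At breeding each dam was put on a ration aimed at 0.28 kg of gain per day (LG) or on the same ration plus a starch-based supplement of energy and protein aimed at 0.79 kg per day (MG). VTM_MG and VTM_LG therefore shared the premix and differed in the energy and protein supplement. The NoVTM_MG and NoVTM_LG fetuses, 8 in each group, gave the same contrast without the premix.

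The fetal liver makes plasma proteins and apolipoproteins, stores glycogen, and at this stage also houses blood cell formation, so its RNA comes from hepatocytes, blood precursors, endothelium, stroma and macrophages. Nutrients reach it from the dam through the placenta and umbilical vein. Maternal energy supply is known to act on fetal growth and metabolism through glucose, amino acids and hormones such as insulin and the insulin-like growth factors. In bulk liver RNA, fewer cells of a type and less RNA per cell cannot be told apart. The deposited table names genes by Ensembl identifier only, and 0 of the 14228 genes tested could be paired with a symbol. The label of the tissue could thus not be checked against marker genes, and genes are given below without a function.

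Library sizes overlapped between the groups. Total counts ran from 13868059 to 15609330 in VTM_MG and from 13186812 to 16360774 in VTM_LG. Between 17279 and 17801 genes had at least 1 count in each VTM_MG library, and between 17118 and 17666 in each VTM_LG library. The lowest numbers of detected genes, 17138 and 17118, belonged to VTM_LG replicates 4 and 7. These libraries also lay far out on the first principal component of log2 CPM, which carried 14.1% of the variance, at 63 and 37.9. VTM_LG replicate 8 lay at the opposite end, at -20.2. The VTM_MG libraries lay between -14 and 5.17 and averaged -7.49 ± 7.01 (SD, n = 7), against 11.3 ± 26.3 (SD, n = 8) in VTM_LG. These positions were used to single out replicates 4 and 7, so they are given as a description. Without those libraries the VTM_LG mean was -1.75 ± 9.33 (SD, n = 6). Total counts, detected genes, the share of the 10 most abundant genes and the second component gave adjusted p-values of 0.808 to 0.924 in two-sided exact permutation tests over all 6435 splits, adjusted over 5 library measures with the first component among them.

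**Figure D1:**
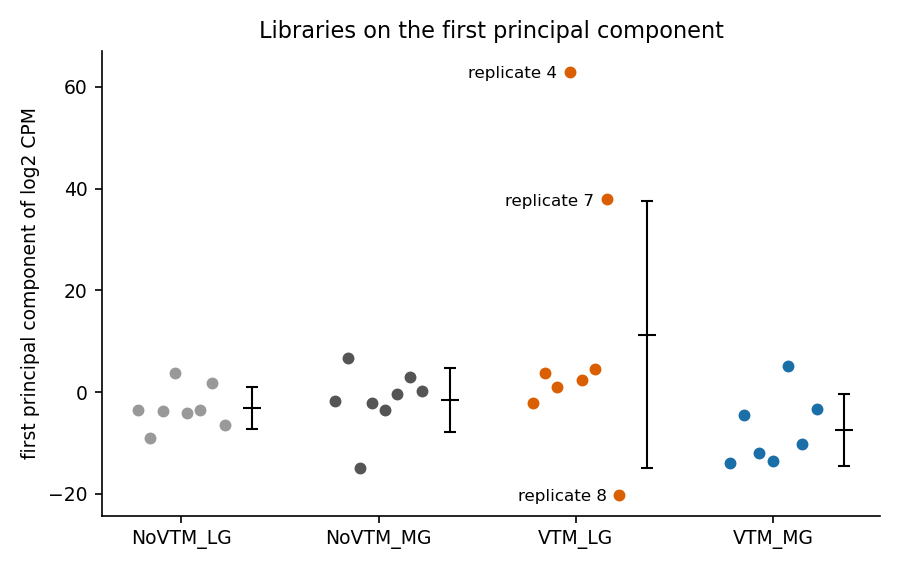
Position of each of the 31 libraries on the first principal component of log2 CPM, by group, with the mean and SD of each group in black. VTM_LG replicates 4 and 7 lie at 63 and 37.9 and VTM_LG replicate 8 at -20.2, while the VTM_MG libraries lie between -14 and 5.17.

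The genes far below their median in VTM_LG replicates 4 and 7 were partly shared by both libraries. Their part in the position on the first principal component was not tested. In VTM_LG replicate 4, the values of 1008 genes (7.08% of those tested) were 2-fold or more under the gene's median of the 31 libraries, and in VTM_LG replicate 7 there were 561 (3.94%). Of these, 245 genes were below in both, which is 24.3% of the list of replicate 4 and 43.7% of the list of replicate 7. Of the 1008 genes below in replicate 4, 9 (0.893%) were at least 2-fold above in replicate 7, against 107 of all 14228 genes tested. In replicate 4, 200 genes were at least 2-fold above the median, and 28 genes were above in both. The 245 shared genes were of low abundance, with a median of 3.47 CPM over the other 29 libraries against 15.1 CPM for all genes tested. A 2-fold rule reaches rare genes more readily in any library. In each of the other 29 libraries 90 to 206 genes were below by the same rule, and their abundance was not compared. CPM is the count divided by the scaled library size, in the usual unit. The median deviation of the 245 genes was -1.5 and -1.32 on the log2 scale in replicates 4 and 7, between -0.13 and -0.0611 in VTM_LG replicates 1, 2, 3, 5 and 6, and 0.357 in VTM_LG replicate 8. In VTM_MG it ran from -0.112 to 0.272. These genes were chosen for their low values in the 2 libraries, so the deviations describe them and test nothing.

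Fetuses of VTM_LG varied more among themselves than those of the other groups. The SD of log2 CPM between fetuses, taken per gene, had a median of 0.255 in VTM_LG and of 0.2 in VTM_MG. It was 0.184 in NoVTM_LG and 0.199 in NoVTM_MG. In VTM_LG the SD exceeded that of VTM_MG for 67.4% of genes. Without replicates 4 and 7 the median in VTM_LG was 0.195, and the SD exceeded that of VTM_MG for 48.4% of genes. The 6 VTM_LG fetuses left were about as variable as the VTM_MG fetuses. Replicates 4 and 7 were singled out for lying far out in these same values, which favours a smaller spread without them. No library was left out of VTM_MG, so these values are a description.

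No gene passed the threshold for maternal gain with the supplement. The quasi-likelihood test of edgeR called 0 of 14228 genes (0% in each direction) at the 0.05 threshold after adjustment, with 0.246 as the smallest adjusted p. Before adjustment 2106 genes (14.8%) had a p under 0.05, of which 1027 (7.22%) were higher and 1079 (7.58%) lower in VTM_MG, where 5% of the genes would be 711.4. Without VTM_LG replicates 4 and 7 the count was 782 of 14278 genes (5.48%), with 413 (2.89%) higher and 369 (2.58%) lower, where 5% would be 713.9. The smallest adjusted p was then 0.734. Of the 1027 higher genes 336 remained at a p under 0.05 without these libraries, and of the 1079 lower genes 295 did. Without VTM_LG replicate 4 alone there were 1196 genes at a p under 0.05. With only VTM_MG and VTM_LG in the fit there were 1274 of 13760 (9.26%), and 0 passed after adjustment. DESeq2 called 1 gene and had 2135 at an unadjusted p under 0.05, and limma voom called 0 and had 1620.

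**Figure D2:**
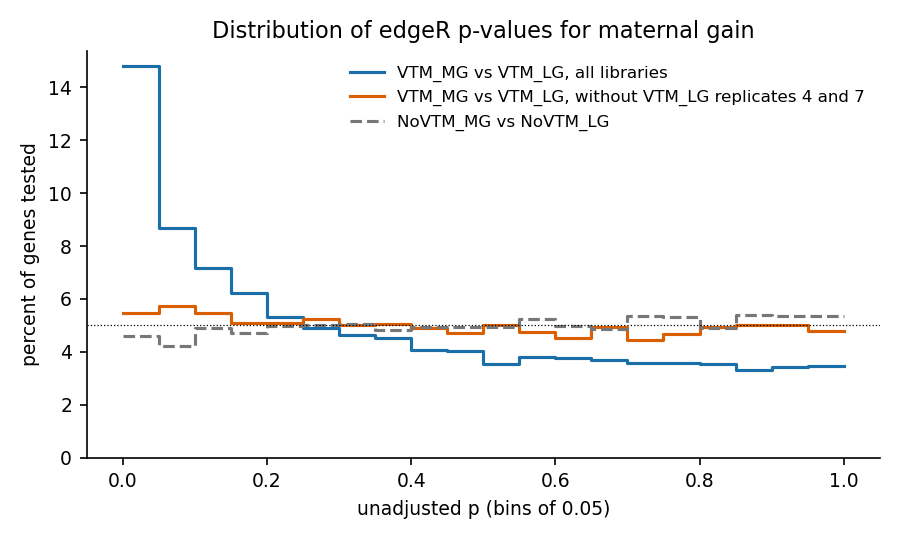
Share of tested genes in each 0.05-wide bin of the unadjusted edgeR p-value, for VTM_MG against VTM_LG with all libraries (blue), the same without VTM_LG replicates 4 and 7 (orange) and NoVTM_MG against NoVTM_LG (grey, dashed). The dotted line marks 5%. The first bin holds 14.8% of genes with all libraries, 5.48% without the 2 libraries and 4.59% in the NoVTM contrast.

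The 2 outlying libraries were often the extreme values behind these nominal differences. Among the 1027 genes with higher values in VTM_MG, VTM_LG replicate 4 was the lowest of the 15 libraries for 53.8% and replicate 7 for 29.1%, against 19.8% and 10.6% of all genes tested. Among the 1079 genes with lower values, replicate 4 was the highest for 71.5% and replicate 7 for 9.64%, against 23% and 6.9% of all genes. A low value in VTM_LG helps to place a gene among the higher ones, so these shares are a description.

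The nominal differences also followed abundance. The tested genes were ranked by abundance and cut into 4 classes of 3557. In the most abundant class, at 39.4 CPM or more, 452 genes (12.7%) were lower in VTM_MG and 241 (6.78%) higher at an unadjusted p under 0.05. In the least abundant class, from 0.411 to 4.28 CPM, the order was the other way round, with 124 genes (3.49%) lower and 174 (4.89%) higher. The median log2 fold change went from 0.027 in the least abundant class to -0.032 in the most abundant. Without VTM_LG replicates 4 and 7 the top class held 103 lower and 84 higher genes and its median log2 fold change was -0.0076. The shift between rare and abundant genes was thus smaller once these libraries were left out. In the NoVTM contrast the most abundant class held 65 lower and 77 higher genes.

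The differences were small for most genes. With all libraries the median absolute log2 fold change was 0.117, and among genes at an unadjusted p under 0.05 it was 0.252. A fitted difference of at least 1.5-fold was found for 285 genes, of which 249 were in the least abundant class, and one of at least 2-fold for 46 genes. For 94.3% of genes the 95% interval held no change as large as 2-fold, up or down, and for 76.6% none as large as 1.5-fold. Precision rose with abundance: the latter share was 31.3% in the least abundant class and 96.7% in the most abundant. For most genes of the least abundant class a 1.5-fold change thus lay within the interval. The intervals rest on a spread estimated over all 4 groups together. VTM_LG varied more (median SD of log2 CPM 0.255, against 0.2 in VTM_MG), so they may be too narrow for this contrast. In the NoVTM contrast the median absolute log2 fold change was 0.0742, and without VTM_LG replicates 4 and 7 it was 0.0833 in the VTM contrast.

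The gene with the smallest p was ENSBTAG00000047293. It measured 10.9, 11.6 and 13.2 CPM (lowest, median and highest) in the 7 VTM_MG livers and 4.38, 8.38 and 10 CPM in the 8 VTM_LG livers. The groups did not overlap, and the lowest values, 4.38 and 4.63 CPM, were those of VTM_LG replicates 4 and 7. The means were 11.9 ± 0.728 CPM (SD, n = 7) and 7.74 ± 2.12 CPM (SD, n = 8), and the fitted difference was 0.61 in log2 (SE 0.128), which did not pass in edgeR (adjusted p = 0.246). Without the 2 libraries the VTM_LG range was 7.85 to 10 CPM. The log2 fold change was then 0.43 (SE 0.0914, adjusted p = 0.734 in edgeR). This was the gene that DESeq2 called (adjusted p = 0.0173). In the NoVTM groups it measured 7.6 to 11.4 CPM with low gain and 8.08 to 11.7 CPM with moderate gain.

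ENSBTAG00000034827 had the second smallest p among the genes with higher values in VTM_MG. It measured 2.97, 3.87 and 4.6 CPM in VTM_MG and 1.66, 2.59 and 3.34 CPM in VTM_LG. The groups overlapped, with 5 of 7 VTM_MG livers above the highest VTM_LG value and 7 of 7 above the VTM_LG median. The log2 fold change was 0.61 (SE 0.137, adjusted p = 0.246 in edgeR), and 0.53 (SE 0.141, adjusted p = 0.817) without VTM_LG replicates 4 and 7. Here the lowest VTM_LG value, 1.66 CPM, belonged to replicate 5.

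Of the genes with lower values in VTM_MG, ENSBTAG00000008014 had the smallest p. It measured 27.6, 32 and 36.9 CPM in VTM_MG and 34.1, 38.5 and 53.5 CPM in VTM_LG. In 6 of 7 VTM_MG livers it was below the lowest VTM_LG value. The 2 highest values, 53.5 and 44.8 CPM, came from VTM_LG replicates 4 and 7, and the other 6 VTM_LG livers averaged 37.3 ± 2.2 CPM (SD, n = 6), close to the 37.1 ± 1.49 of NoVTM_LG and 36.5 ± 1.99 of NoVTM_MG (SD, n = 8 each). The log2 fold change was -0.34 (SE 0.0733, adjusted p = 0.246 in edgeR) with all libraries and -0.23 (SE 0.0591, adjusted p = 0.817) without those 2.

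ENSBTAG00000004551 measured 26.9, 28.4 and 32.5 CPM in VTM_MG and 31.3, 35.3 and 43.9 CPM in VTM_LG. It was below the lowest VTM_LG value in 5 of 7 VTM_MG livers, and the highest VTM_LG value was that of replicate 4. The log2 fold change was -0.30 (SE 0.0693, adjusted p = 0.246 in edgeR), and -0.24 (SE 0.0671, adjusted p = 0.817) without VTM_LG replicates 4 and 7. In both NoVTM groups its mean lay between those of VTM_MG and VTM_LG, at 31.1 ± 2.59 CPM with low and 31.6 ± 2.47 CPM with moderate gain (SD, n = 8 each).

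**Figure D3:**
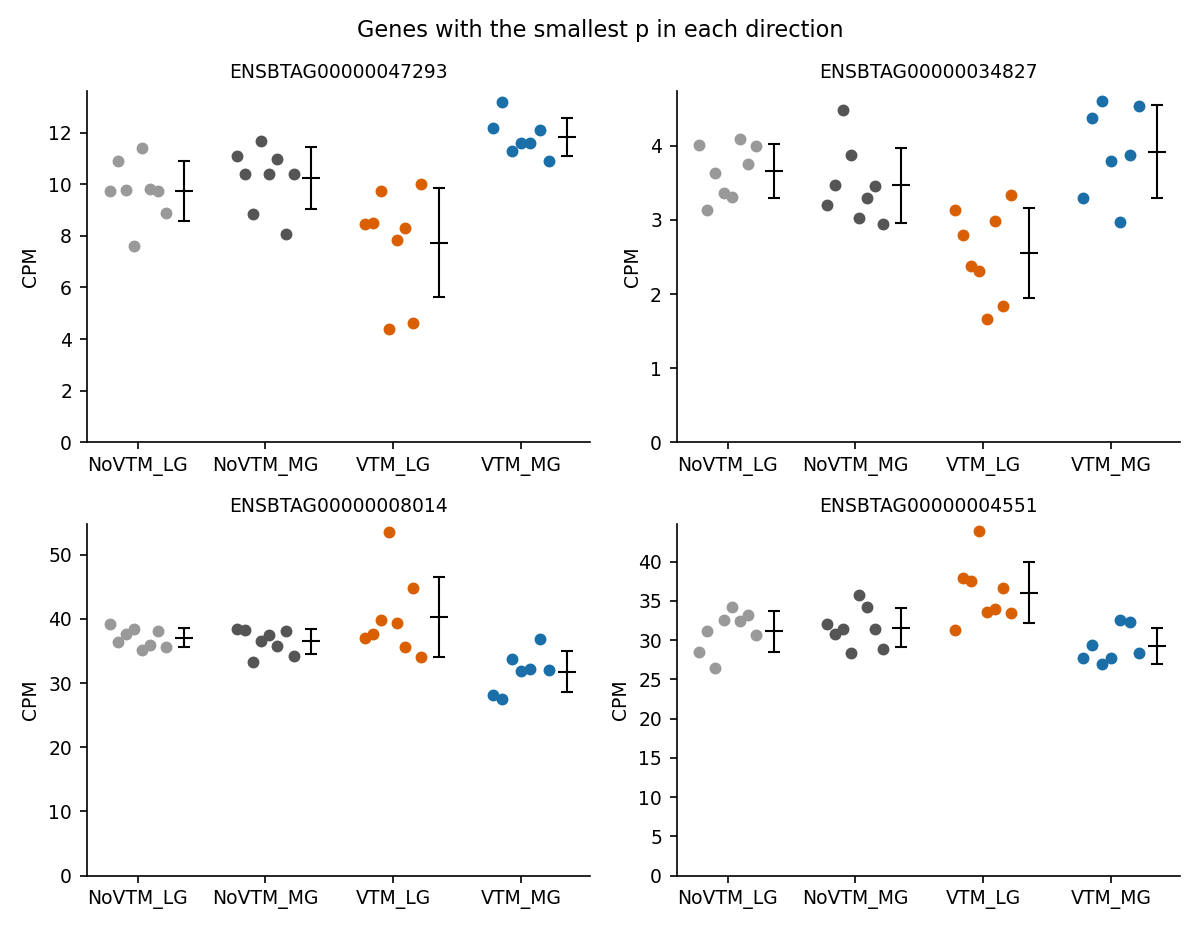
CPM of the 2 genes with the smallest p in each direction, 1 point per liver, in all 4 groups, with the mean and SD in black and each axis starting at 0. The VTM_MG and VTM_LG points of ENSBTAG00000047293 do not overlap, while those of ENSBTAG00000034827, ENSBTAG00000008014 and ENSBTAG00000004551 do.

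Complete separation of the groups was rare. VTM_MG lay wholly above VTM_LG for 3 genes (0.0211% of those tested) and wholly below for 5 (0.0351%). Their fitted differences ran from 0.189 to 0.81 in absolute log2 fold change, and none passed in edgeR (adjusted p of 0.246 to 0.259). The 3 genes above averaged 11.9 to 97.9 CPM in VTM_MG. The 5 below averaged 0.986 to 38.3 CPM in VTM_LG. Without VTM_LG replicates 4 and 7 separation is easier to reach with 6 livers in place of 8. Then 9 genes (0.063%) lay above and 8 (0.056%) below. These include the 3 and 5, which was all but fixed in advance, because leaving out livers can hardly undo a separation.

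Without the 2 outlying libraries ENSBTAG00000047293 again had the smallest p, and the genes next by p, 1 higher and 2 lower, were ENSBTAG00000017139, ENSBTAG00000011803 and ENSBTAG00000006999. ENSBTAG00000017139 measured 26.8, 32.1 and 35.9 CPM in VTM_MG and 23.2, 24.3 and 28.2 CPM in the 6 VTM_LG livers left, where the groups overlapped. Its log2 fold change was 0.36 (SE 0.0868, adjusted p = 0.817 in edgeR), and 0.30 (SE 0.0873, adjusted p = 0.246) with all libraries, where VTM_LG replicate 7 held the highest value of its group, 33.2 CPM. ENSBTAG00000011803 was set apart by 1 liver. It was 20.3 CPM in VTM_LG replicate 1, at most 1.92 CPM in the other VTM_LG livers and 0.528 to 0.674 CPM in VTM_MG. The next highest VTM_LG values, 1.92 and 1.9 CPM, were those of replicates 4 and 7. Its log2 fold change was -2.75 (SE 0.677, adjusted p = 0.817 in edgeR) without replicates 4 and 7. With all libraries it was -2.55 (SE 0.643, adjusted p = 0.246 in edgeR). Without VTM_LG replicate 1, a fit that keeps replicates 4 and 7, it was -0.80 (adjusted p = 0.263 in edgeR).

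ENSBTAG00000006999 had lower values with moderate gain in both arms of the design. It measured 1.53, 2.62 and 6.93 CPM in VTM_MG and 3.68, 6.87 and 13.1 CPM in VTM_LG, and 6 of 7 VTM_MG livers were below the VTM_LG median. The log2 fold change was -1.08 (SE 0.287, adjusted p = 0.246 in edgeR), and -1.19 (SE 0.297, adjusted p = 0.817) without VTM_LG replicates 4 and 7. In the NoVTM groups, which share no liver with this contrast, the medians were 2.81 CPM with moderate and 6.73 CPM with low gain, or -1.09 in log2 (SE 0.277, adjusted p = 0.387). A choice by gain averaged over supplementation favours the same sign in both arms. ENSBTAG00000006999 is 1 of 3 genes (0.0211%) that fell in that averaged contrast in edgeR (adjusted p = 0.0239). That count was 0 without VTM_MG replicate 2 (smallest adjusted p = 0.0559), 1 without VTM_MG replicate 7 or VTM_LG replicate 2, 5 without VTM_LG replicate 8 or VTM_MG replicate 1, 7 without VTM_LG replicates 4, 7 and 8, and 9 in DESeq2.

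The other genes of that averaged contrast had smaller absolute log2 fold changes than ENSBTAG00000006999. Without the supplement these were -0.772 for ENSBTAG00000012855 and -0.5 for ENSBTAG00000055207 (adjusted p = 0.0541 each in edgeR). Their interaction with the supplement did not pass (adjusted p = 0.542 and 0.533 in edgeR). ENSBTAG00000012855 measured 18.4, 22 and 30 CPM in VTM_MG and 20.5, 31 and 40 CPM in VTM_LG, and its lowest VTM_LG value was that of replicate 4. All 7 VTM_MG livers were below the VTM_LG median, yet the ranges overlapped. The log2 fold change was -0.43 (SE 0.148, adjusted p = 0.252 in edgeR), or -0.51 (SE 0.151, adjusted p = 0.863) without VTM_LG replicates 4 and 7. ENSBTAG00000055207, the most abundant gene named here, measured 250, 283 and 346 CPM in VTM_MG and 330, 354 and 388 CPM in VTM_LG, with 5 of 7 VTM_MG livers below the lowest VTM_LG value. Its log2 fold change was -0.26 (SE 0.0979, adjusted p = 0.258 in edgeR), and -0.27 without the 2 libraries. For this gene VTM_LG replicate 4 was the lowest of its group, at 330 CPM, and replicate 7 lay inside it, at 367 CPM.

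Whether gain acted differently with and without the premix was tested as an interaction over all 31 libraries. In edgeR 0 of 14228 genes passed (0% in each direction, smallest adjusted p = 0.431), and for 1516 (10.7%) the p before adjustment was under 0.05. DESeq2 and limma voom also called 0, with 1563 and 1746 genes at an unadjusted p under 0.05. Without VTM_LG replicates 4 and 7 there were 920 such genes in edgeR, again with 0 passed. For the 4 genes with the smallest p in the supplemented contrast the interaction had an adjusted p of 0.431 each. No gene could therefore be said to respond to gain with the supplement only.

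The genes with the smallest interaction p are described by their values, and such a choice favours opposite signs with and without the premix. ENSBTAG00000007728 measured 56.6, 68.8 and 69.2 CPM in VTM_MG and 62.3, 76.7 and 90.1 CPM in VTM_LG, but 71.5, 77.3 and 83.1 CPM in NoVTM_MG and 62.8, 70.5 and 72.7 CPM in NoVTM_LG. Its log2 fold change for gain was -0.22 (SE 0.0628) with the premix and 0.16 (SE 0.0605) without, an interaction of -0.38 (SE 0.0872, adjusted p = 0.431 in edgeR). The highest values in VTM_LG, 90.1 and 85.4 CPM, were those of replicates 4 and 7, and without them the interaction was -0.31 (adjusted p = 0.758). ENSBTAG00000002525 had log2 fold changes of -0.20 with and 0.20 without the premix (interaction -0.40, SE 0.094, adjusted p = 0.431 in edgeR).

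ENSBTAG00000006320 went the other way. It measured 45.4, 48.7 and 55.7 CPM in VTM_MG and 33.5, 43.1 and 51.2 CPM in VTM_LG, against 41.3, 43.8 and 51.1 CPM in NoVTM_MG and 46.5, 48.6 and 58.2 CPM in NoVTM_LG. All 4 ranges overlapped. Its log2 fold change for gain was 0.25 (SE 0.0714) with and -0.15 (SE 0.069) without the premix, an interaction of 0.40 (SE 0.0993, adjusted p = 0.431 in edgeR) that was also 0.40 without VTM_LG replicates 4 and 7. ENSBTAG00000006548 had a log2 fold change of 0.09 (SE 0.0687, 95% interval -0.05 to 0.23) with and -0.29 (SE 0.0664) without the premix.

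**Figure D4:**
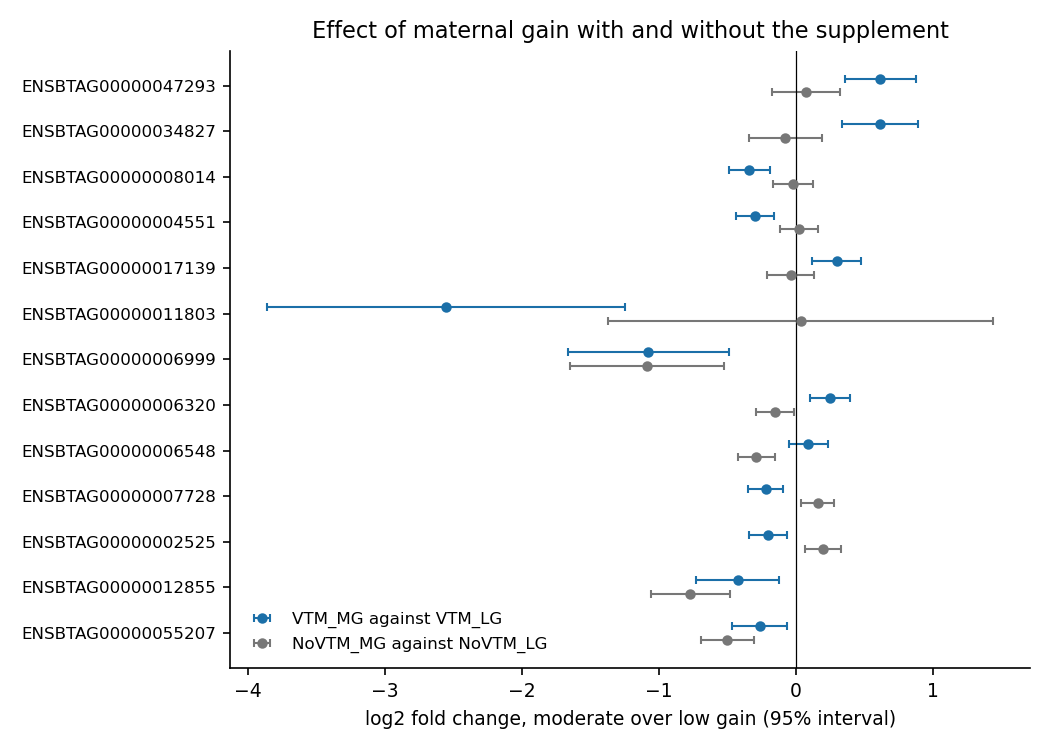
Fitted log2 fold change for moderate over low gain, with its 95% interval, in VTM dams (blue) and NoVTM dams (grey) for the 13 genes named. ENSBTAG00000006999, ENSBTAG00000012855 and ENSBTAG00000055207 lie below 0 in both, which their choice by the averaged contrast favours. No interaction passed in edgeR.

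The nominal lists of the 2 gain contrasts, which share no liver, were set side by side. Of the 1027 genes higher in VTM_MG at an unadjusted p under 0.05, 5 were also among the 296 (2.08%) higher in NoVTM_MG, or 0.487% of the first list and 1.69% of the second. Of the 1079 lower genes 23 were also among the 357 (2.51%) lower in NoVTM_MG, 2.13% and 6.44% of the lists. In the opposite direction 16 of the 1027 genes (1.56%) were lower and 25 of the 1079 (2.32%) higher in NoVTM_MG. Each share of a VTM list is read against the share of all genes in the NoVTM list, and with every library included the 4 shares were near or under it. Without VTM_LG replicates 4 and 7, 4 of 413 higher genes (0.969%) and 20 of 369 lower genes (5.42%) were also in the NoVTM lists of that fit, which held 396 and 420 of 14278 genes. In the opposite direction there were 6 of the 413 genes (1.45%) and 15 of the 369 (4.07%). The shares of the 369 lower genes thus lay above those of all genes in the same and in the opposite direction. Those of the 413 higher genes lay under them. The NoVTM contrast as a whole had 653 genes (4.59%) at an unadjusted p under 0.05.

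The number of genes called depended on VTM_LG replicate 8. Without it 19 genes (0.134%) rose and 4 (0.0282%) fell in VTM_MG past the adjusted threshold in edgeR, and 2881 (20.3%) had a p under 0.05 before adjustment. ENSBTAG00000047293, ENSBTAG00000034827 and ENSBTAG00000008014 belonged to the 23 (adjusted p = 0.0474 for each), while ENSBTAG00000004551 stood at 0.0541. The 23 genes differed by 0.269 to 0.962 in absolute log2 fold change. With every library included all 23 had an unadjusted p under 0.05 in edgeR, as had 14.8% of all genes tested. These fits differ only by replicate 8, so that overlap was favoured in advance. The fit without replicate 8 keeps replicates 4 and 7. Without all 3, which left 5 VTM_LG livers, 0 genes passed (smallest adjusted p = 0.277) and 1190 had an unadjusted p under 0.05.

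**Figure D5:**
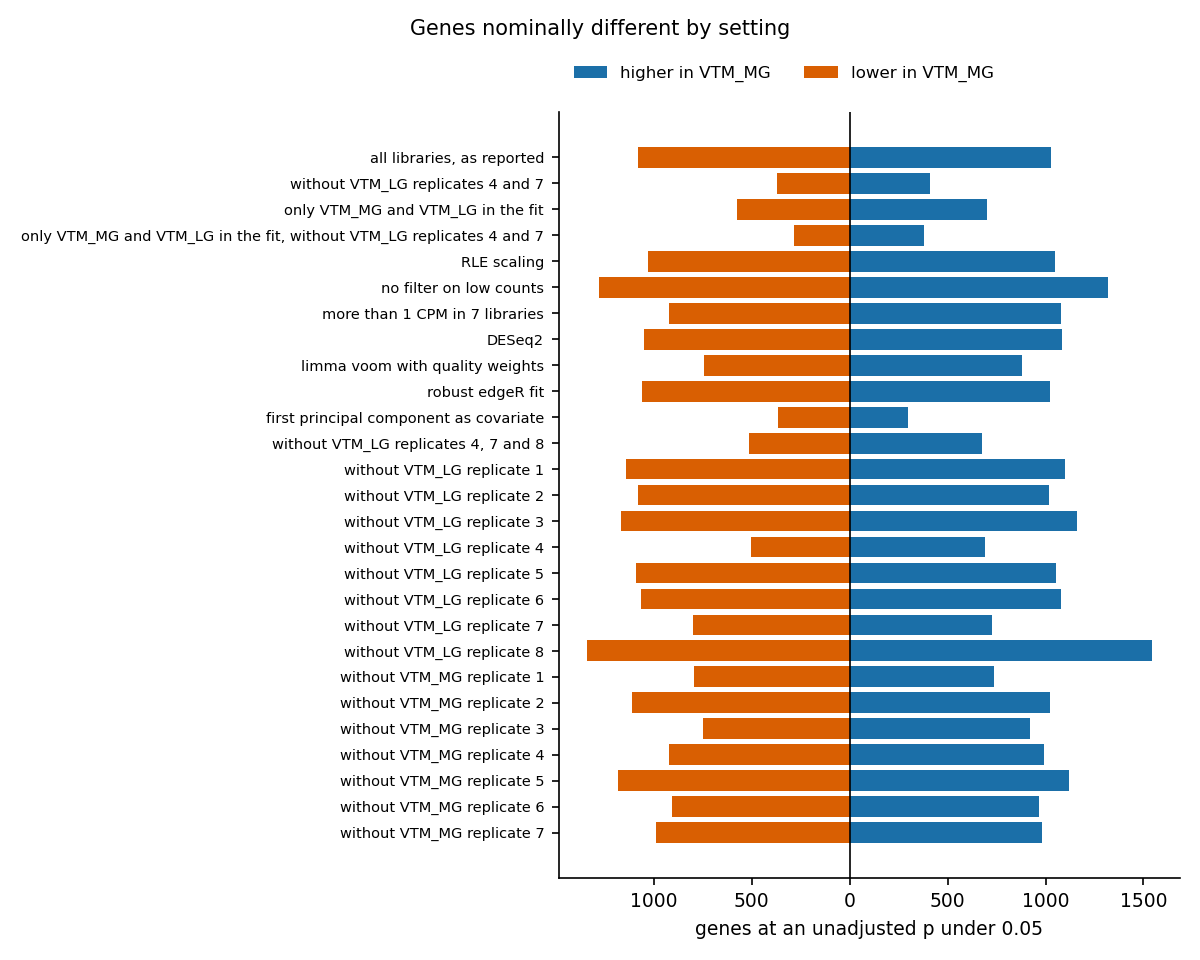
Number of genes at an unadjusted p under 0.05 that were higher (blue, to the right) or lower (orange, to the left) in VTM_MG, for the reported fit and each other setting. The totals run from 664 with only these groups fitted and VTM_LG replicates 4 and 7 left out to 2881 without VTM_LG replicate 8, and 14228 genes were tested in the reported fit against 21921 with no filter on low counts.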

How the data were processed

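The deposited values are counts of reads per gene, left unnormalized by the authors, for 27607 Ensembl bovine identifiers in 31 libraries. Per the submitters' processing notes, CASAVA, FastQC 0.11.8, MultiQC 1.9, STAR 2.7.3a and edgeR were used, with no roles given. Not given in the sources used here are the genome build, annotation, counting program and whether counting used strand, so genes sharing reads with a copy or an antisense partner could not be marked. Per the labels, libraries were strand-specific, with paired reads of 150 bp.

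Columns were matched to samples by title, and replicate numbers follow the order of the samples and pair nothing. Genes were kept by filterByExpr (minimum count 10, minimum total 15), scaled by TMM and fitted with the quasi-likelihood test of edgeR 4.0.16 in R 4.3.3, with 1 mean per group over all 31 libraries and Benjamini-Hochberg adjustment over all genes tested. Alternatives used DESeq2 1.42.0 and limma 3.58.1, other filters and scaling, and fewer libraries. SEs come from the fold change and its F statistic. For principal components, log2 CPM had a prior count of 2. The procedure was tested on simulated data with the same spread in every group and no outlying library. That test cannot say how the fit handles the outlying libraries and larger spread of VTM_LG. No 2 of the 15 libraries agreed within sampling noise (chi-square per degree of freedom of at least 6.89 over 105 pairs). P-values of the reported edgeR fit rest on the spread between fetuses within groups, estimated per gene over all 4 groups together. VTM_LG varied the most of them (median SD of log2 CPM 0.255), so p-values may be too small and intervals too narrow for VTM_MG against VTM_LG. The labels tie no sample to a batch or breeding group.

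The supplied reference table of 37063 genes held no Ensembl identifier, so 43 gene lists chosen for this comparison, cell type markers included, were not run. Named genes are the 2 smallest p-values per direction at 1 CPM or more, for the contrast, the same without VTM_LG replicates 4 and 7, and the interaction, plus any DESeq2 or limma voom call and the 3 genes of the averaged contrast. The comparison, its lists and rules were chosen with earlier results of these data known, among them the positions of those libraries.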

Additional observations from a re-analysis of the deposited data

Results flagged for a closer look

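Each group's highest and lowest value was compared with its nearest neighbour for 62 sets of values, and 6 were far from the rest, where chance gives about 1 in 20 sets. VTM_MG replicate 4 had 17801 detected genes, and the next highest VTM_MG library had 17501. ENSBTAG00000011803 was 20.3 CPM in VTM_LG replicate 1, with 1.92 CPM next, and 0.674 CPM in VTM_MG replicate 4, with 0.59 CPM next. ENSBTAG00000007728 was 56.6 CPM in VTM_MG replicate 3, the lowest of its group, with 63.8 CPM next. ENSBTAG00000006320 was 58.2 CPM in NoVTM_LG replicate 1, the highest, with 51.9 CPM next. ENSBTAG00000017139 was 23.5 CPM in NoVTM_LG replicate 3, the lowest, with 30 CPM next.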

How the results depend on the processing

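For VTM_MG against VTM_LG the count past the adjusted threshold was 1 in DESeq2 and ran from 0 to 23 when 1 of the 15 libraries was left out, 23 being without VTM_LG replicate 8. It was 0 in all other settings, and for the interaction it was 0 in every setting run. The count at an unadjusted p under 0.05 was 782 without VTM_LG replicates 4 and 7, 1274 with only these groups fitted, 664 with both, 665 with the first principal component in the model, and 1190 without VTM_LG replicates 4, 7 and 8, a setting chosen after seeing the data. It ran from 1196 (without VTM_LG replicate 4) to 2881 (without VTM_LG replicate 8) when 1 library was left out. The cause of these shifts was not tested. The mean total count differed by -56918 (VTM_MG minus VTM_LG) with all libraries and by 51810 without VTM_LG replicates 4 and 7. All 13 named genes kept the direction of their fold change in each setting where they could be fitted. No paired analysis was possible because the labels give no replicate number shared between groups. Intervals were widest for the rarest genes: in the least abundant of 4 classes they excluded 1.5-fold changes for 31.3% of genes, and the parts of depth and of spread between fetuses in this were not tested.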
